A study of Mus musculus with 6 samples.

Results

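Cholesterol synthesis, uptake and efflux were followed through 29 genes of the colon, taken by their gene name from a deposited table of 27202 genes. All 29 were listed, and 28 passed a filter on low values, a mean of at least 10 normalized counts over the 6 libraries, which 16246 genes of the table passed. RNA was sequenced from colonic tissue of 3 Nedd4lfl/fl VillinCre mice, in which Cre under the Villin promoter deletes floxed Nedd4l constitutively from intestinal epithelial cells, and of 3 Nedd4lfl/fl littermates, which carry the floxed alleles without Cre and are labelled WT. Both genotypes were on a C57BL/6J background, were 8 to 10 weeks old, and drank 2% dextran sulfate sodium (DSS), a polysaccharide that injures the colonic epithelium, for 7 days before the tissue was taken. There was no group without DSS, so each comparison is between genotypes in the injured colon. Whole tissue also holds immune, stromal and muscle cells, which keep Nedd4l because Villin is an epithelial gene, and in such tissue fewer cells of a type and less RNA per cell cannot be told apart.

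Cholesterol is built from acetyl-CoA through mevalonate and the isoprenoids to squalene, which is closed to lanosterol and trimmed to cholesterol in the endoplasmic reticulum. When membrane sterol is low, SCAP carries the transcription factor SREBP2 to the Golgi for cleavage and the genes of the synthesis enzymes are switched on, whereas INSIG1 and INSIG2 hold SCAP back when sterol is plentiful. Surplus cholesterol is esterified by the SOAT enzymes or exported by ABCA1 and ABCG1, whose genes are activated by the oxysterol receptor LXRα, encoded by Nr1h3.

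SREBP2 and its partner NF-Y are known to bind short motifs in promoters of synthesis genes, and 4 promoters are shown because they belong to members with which the results deal: the member with the highest level (Hmgcs1), a sterol demethylase (Msmo1), and both INSIG genes. Each is the run of 250 bases before the RefSeq start on GRCm38.p6, written 5′ to 3′ on the gene's strand. Capitals mark the core of the sterol response element, CACNCCAC, and the CCAAT box bound by NF-Y, each on either strand, so that CCAAT also appears as ATTGG and CACNCCAC as its reverse complement.
Hmgcs1, chr13:119690101-119690350, plus strand: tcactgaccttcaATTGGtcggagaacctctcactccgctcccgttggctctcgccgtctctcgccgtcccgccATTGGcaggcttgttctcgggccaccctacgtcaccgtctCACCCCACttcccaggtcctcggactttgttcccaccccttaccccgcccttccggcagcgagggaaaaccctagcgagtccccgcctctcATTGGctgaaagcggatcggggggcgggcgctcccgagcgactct
Msmo1, chr8:64733579-64733828, minus strand: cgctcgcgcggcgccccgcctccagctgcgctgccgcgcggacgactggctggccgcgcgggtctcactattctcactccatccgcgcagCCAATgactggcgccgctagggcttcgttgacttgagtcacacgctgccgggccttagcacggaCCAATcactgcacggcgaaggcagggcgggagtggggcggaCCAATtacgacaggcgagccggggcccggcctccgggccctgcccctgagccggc
Insig1, chr5:28071162-28071411, plus strand: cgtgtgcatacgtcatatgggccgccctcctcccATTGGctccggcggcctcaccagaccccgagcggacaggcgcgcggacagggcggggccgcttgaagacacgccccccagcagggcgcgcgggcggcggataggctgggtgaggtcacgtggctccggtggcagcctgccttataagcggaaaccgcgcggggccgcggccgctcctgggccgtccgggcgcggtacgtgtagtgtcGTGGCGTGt
Insig2, chr1:121332590-121332839, minus strand: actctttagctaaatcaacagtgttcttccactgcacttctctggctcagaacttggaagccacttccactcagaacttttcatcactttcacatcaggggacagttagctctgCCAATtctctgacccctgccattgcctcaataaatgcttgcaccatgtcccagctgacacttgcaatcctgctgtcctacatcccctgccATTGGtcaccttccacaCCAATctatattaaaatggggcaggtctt

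Of the 23 members with a promoter in the RefSeq table, 19 (82.6%) held CCAAT in at least 1 listed window, against 37.5% of all 27025 genes with a promoter of the same length. CACNCCAC was in 3 members (13%), Acat2, Hmgcs1 and Insig1, against 6.05% of all genes. The E-box CACGTG was in 6 members (26.1%), Hsd17b7, Sc5d, Dhcr7, Scap, Insig1 and Abca1, against 6.86%. The other 6 members, Fdps, Fdft1, Sqle, Stard4, Soat2 and Abcg1, were not matched in that table. Insig2, Dhcr7, Nr1h3, Pmvk and Scap have more than 1 listed start, and the Insig2 window shown is the most upstream of its starts and the one that holds CCAAT.

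The values are normalized counts, that is, the reads of each gene scaled by the size factor of its library. In units of the smallest value of each library, which would be reads if that value stands for 1 read, the library totals ran from 14914367 to 17547270. Epithelial markers (Epcam, Vil1, Cdh1, keratins and claudins) summed to between 196341 and 220676 normalized counts in Nedd4lfl/fl VillinCre and between 210588 and 235536 in Nedd4lfl/fl mice. None of the 10 was at 0 in any library. Krt8 and Krt19, with means of 77658 and 45236, weigh most in these sums and had log2 fold changes of −0.19 and −0.22. Of the 10 markers, 3 had positive and 7 negative values (median −0.048). The targeted gene, Nedd4l, stood at 476, 942 and 566 normalized counts in Nedd4lfl/fl VillinCre replicates 1, 2 and 3 and at 1241, 1271 and 1266 in the Nedd4lfl/fl replicates. The genotypes did not overlap (log2 fold change −0.99, SE 0.24, adjusted p = 0.225 from limma). A two-sided exact permutation test gave p = 0.1, the lowest value possible with 3 mice per genotype. Replicate 2 of the Nedd4lfl/fl VillinCre mice, which kept the most Nedd4l, was closer to Nedd4lfl/fl libraries 1 and 3 (r = 0.9797 and 0.9795, across genes) than to either library of its own genotype (0.9542 and 0.9779). Leaving that library out enlarges the Nedd4l difference by construction, and the value is given as a description only. Nedd4l was then at −1.28 (adjusted p = 0.0131 from limma).

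The colon of both genotypes held transcripts for nearly the whole synthesis pathway at substantial levels, while the gene for the intestinal cholesterol importer was close to the floor. With no group without DSS, these levels cannot be compared with those of uninjured colon. Levels of different genes are compared per kilobase of gene model, a length that can exceed that of the transcripts in use. On that scale Hmgcs1, which encodes HMG-CoA synthase, had the highest level, with a mean of 1422 normalized counts per kb and a range of 1217 to 1679 over the 6 libraries. This range lay above that of every other member. The next 4 were Srebf2 (mean 838), Cyp51 (829), Insig1 (826) and Stard4 (739), the sterol carrier that moves cholesterol between membranes. Their ranges overlapped each other and reached at most 1027 normalized counts per kb. Npc1l1, the importer through which enterocytes take up dietary cholesterol, had a mean of 0.813 normalized counts per kb, with 3.83, 2.21 and 4.13 normalized counts in the Nedd4lfl/fl VillinCre and 5.93, 2.7 and 3 in the Nedd4lfl/fl libraries. Npc1l1 was therefore below the filter and was not tested.

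**Figure D1:**
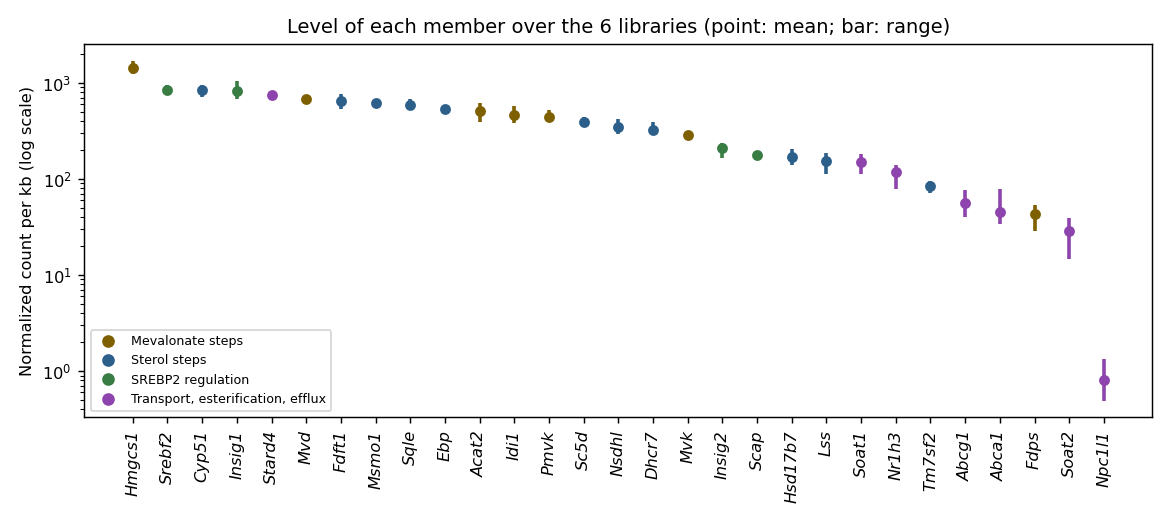
Level of each of the 29 members as normalized counts per kilobase of gene model on a log axis; points are means and bars are ranges over the 6 libraries, colored by role. Hmgcs1 is highest (1422) and Npc1l1 lowest (0.813), with Soat2 (28.5) and Fdps (43.2) next above it.

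Soat2, the cholesterol esterifying enzyme of absorptive epithelium, was the next lowest, with 28.5 normalized counts per kb against 150 for Soat1, the widely expressed form. The LXR targets Abca1 and Abcg1 were at 45.6 and 56.3 per kb. Fdps, farnesyl diphosphate synthase, was at 43.2 per kb, while Idi1, which makes its substrate, was at 455 and Fdft1, which uses its product, at 641. In the GENCODE transcripts, 26.2% of the 50-base words of Fdps also occur in transcripts of 8 other genes, so that its level depends on how shared reads were counted, which is not stated. The same share was 39.1% for Acat2 (Acat3 and Tcp1), 26.5% for Fdft1 (Ctsb and Gm6781), 25.3% for Idi1 and 11.6% for Hmgcs1. For the other 24 members it was below 10%.

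Deletion of Nedd4l from the epithelium was accompanied by no call among these genes. With limma on log2(normalized count + 1) and Benjamini-Hochberg adjustment over all 16246 genes, 0 of 28 members were higher and 0 lower at an adjusted p under 0.05, as over all genes (0.0% in each direction). At an unadjusted p under 0.05, 2 members were higher (Fdft1 and Insig2) and 0 lower, together 7.14% of the members against 14.0% of all genes. All 3 libraries of one genotype lay on one side of the other for Insig2 and Scap only, again 7.14% of the members against 21.4% of all genes. The median log2 fold change was −0.0098 over the 28 members, of which 13 had a positive (46.4%, against 50.2% of all genes) and 15 a negative value, and 0.0013 over all genes tested.

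The intervals were narrow enough to give bounds for most of the pathway. For 22 of 28 members (78.6%) the whole 95% interval of the fold change lay within 1.5-fold either way, against 48.1% of all genes tested, and the median half-width was 0.28 on the log2 scale against 0.39. The 6 members whose interval reached beyond 1.5-fold were Fdps, Lss, Soat2, Abca1, Abcg1 and Nr1h3. These are intervals for single genes, without adjustment for the number of genes.

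**Figure D2:**
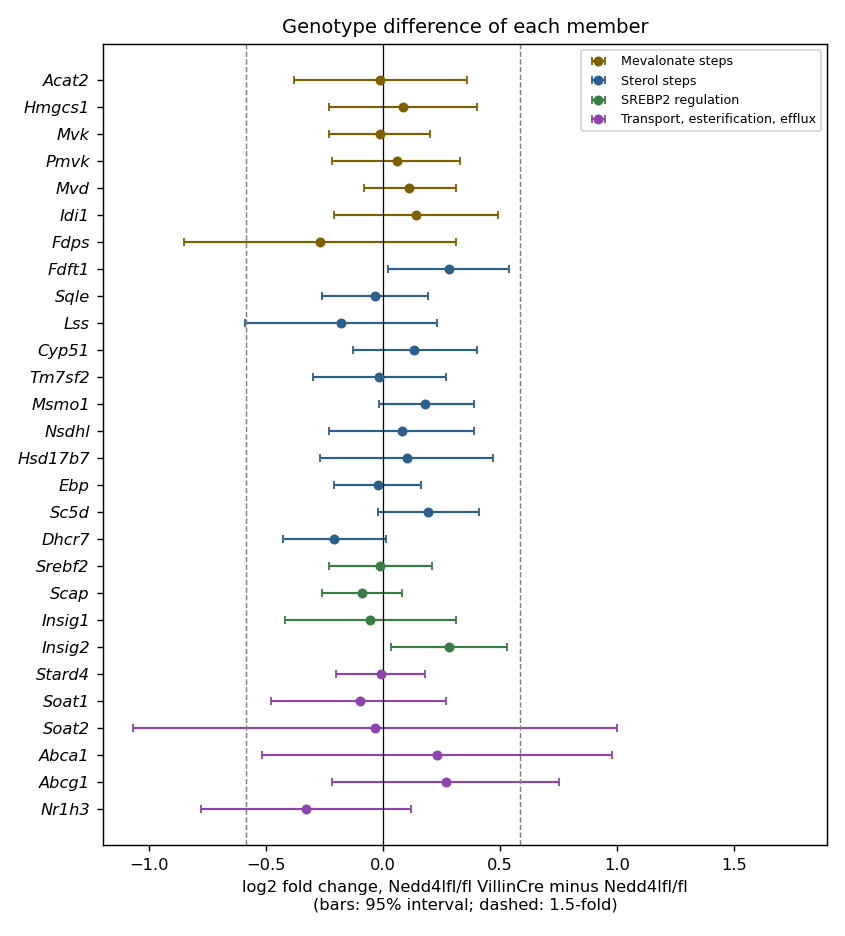
Log2 fold change (Nedd4lfl/fl VillinCre minus Nedd4lfl/fl, n = 3 each) of the 28 tested members from limma with 95% intervals, colored by role; dashed lines mark 1.5-fold. Only the intervals of Fdft1 (0.021 to 0.54) and Insig2 (0.032 to 0.53) exclude 0, and 22 of 28 lie between the dashed lines.

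The 7 mevalonate genes, which lead from acetyl-CoA to farnesyl diphosphate, had a median log2 fold change of 0.059, 4 of them positive and 3 negative. The median was −0.043, 0.16 and −0.022 without Nedd4lfl/fl VillinCre replicate 1, 2 and 3 in turn. Hmgcs1 was at 6898, 5590 and 7714 normalized counts in Nedd4lfl/fl VillinCre replicates 1, 2 and 3 and at 7173, 5743 and 6079 in the Nedd4lfl/fl replicates. These values overlapped, and the log2 fold change was 0.083 (95% interval −0.23 to 0.40, adjusted p = 0.804 from limma). Acat2, the cytosolic thiolase that starts the pathway, and Mvk, mevalonate kinase, had log2 fold changes of −0.012 and −0.014. Pmvk and Mvd, the next kinase and the decarboxylase, had 0.059 and 0.11, and Idi1, isopentenyl diphosphate isomerase, had 0.14. Fdps had −0.27, with the widest interval of the group (95% interval −0.85 to 0.31), and was at −0.47 without Nedd4lfl/fl VillinCre replicate 1 and −0.060 without replicate 2. Its normalized counts were 215, 121 and 162 against 222, 149 and 222, with the lowest value of each genotype in replicate 2. The adjusted p of the 7 genes ran from 0.556 to 0.978 (limma).

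The 11 sterol genes had a median of 0.08, 6 positive and 5 negative. Fdft1, squalene synthase, the first enzyme that commits the pathway to sterols (chr14:63145150-63179578 of GRCm38, minus strand), had the smallest p of all synthesis genes. It stood at 3133, 2547 and 3253 normalized counts in Nedd4lfl/fl VillinCre and at 2644, 2251 and 2429 in Nedd4lfl/fl mice, means of 2978 ± 378 and 2441 ± 197 (SD, n = 3). Replicates 1 and 3 of the Nedd4lfl/fl VillinCre mice were above every Nedd4lfl/fl library and replicate 2 was not. The log2 fold change was 0.28 (SE 0.11, 95% interval 0.021 to 0.54, unadjusted p = 0.0377, adjusted p = 0.337 from limma).

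The end of the Fdft1 gene model overlaps that of Ctsb, the lysosomal protease cathepsin B, which lies on the opposite strand at chr14:63122462-63145923. Ctsb stood at 10761, 10635 and 10181 normalized counts against 9125, 8224 and 8918, a log2 fold change of 0.27 with no overlap between the genotypes (adjusted p = 0.264 from limma). Whether reads were assigned by strand is not stated, and the part of Ctsb reads in the Fdft1 value was not tested.

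Msmo1, which removes the C4 methyl groups of the sterol ring, and Sc5d, sterol C5 desaturase, had positive differences of the next size. Msmo1 was at 4184, 3689 and 4127 normalized counts against 3797, 3410 and 3358 (log2 fold change 0.18, 95% interval −0.018 to 0.39, adjusted p = 0.386 from limma). Sc5d was at 2122, 1814 and 2138 against 1881, 1699 and 1716 (0.19, 95% interval −0.020 to 0.41, adjusted p = 0.388). In both genes, as in Fdft1, replicates 1 and 3 of the Nedd4lfl/fl VillinCre mice were above all Nedd4lfl/fl libraries and replicate 2 lay among them. Dhcr7, which reduces 7-dehydrocholesterol to cholesterol in the last step, went the other way, at 1749, 1800 and 1692 against 1794, 2044 and 2243. Its log2 fold change was −0.21 (95% interval −0.43 to 0.013, adjusted p = 0.374), and the genotypes overlapped at a single pair of libraries, Nedd4lfl/fl VillinCre replicate 2 and Nedd4lfl/fl replicate 1.

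The other 7 sterol genes had log2 fold changes between −0.18 and 0.13 and adjusted p from 0.612 to 0.962 (limma). Sqle, squalene epoxidase and a rate-limiting step of the sterol branch, was at 3246, 3010 and 3428 normalized counts against 3732, 3097 and 3123 (−0.036, 95% interval −0.26 to 0.19). Lss, which closes the ring to lanosterol, had −0.18, with 1211 normalized counts in Nedd4lfl/fl VillinCre replicate 2 as its lowest value and 2014 in Nedd4lfl/fl replicate 1 as its highest, and was at −0.015 without the former library and −0.34 without replicate 1 of the same genotype. Cyp51, lanosterol demethylase, had 0.13, Hsd17b7 and Nsdhl, which act with Msmo1 in removal of the methyl groups, 0.10 and 0.080, and the reductase Tm7sf2 and the isomerase Ebp −0.016 and −0.023.

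**Figure D3:**
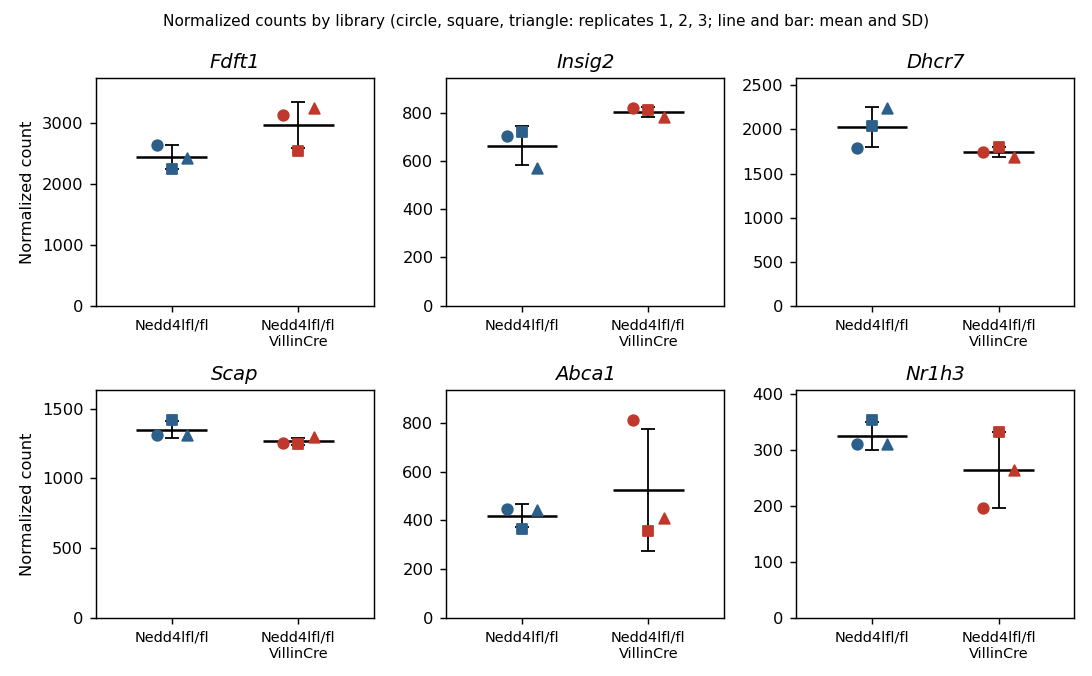
Normalized counts of 6 members in each library from an axis starting at 0; markers stand for replicates 1, 2 and 3, and lines and bars for the mean and SD of each genotype (n = 3). The genotypes do not overlap for Insig2 and Scap, and Abca1 has a single high library, Nedd4lfl/fl VillinCre replicate 1, at 812.

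Of the 4 genes of SREBP2 and its regulation, Srebf2 itself was close to equal in both genotypes. It had 6054, 5696 and 6213 normalized counts in Nedd4lfl/fl VillinCre and 6835, 5604 and 5739 in Nedd4lfl/fl mice (log2 fold change −0.012, 95% interval −0.23 to 0.21, adjusted p = 0.964 from limma). Insig1, itself a target of SREBP2, overlapped as well, at 2555, 2180 and 2750 against 3177, 2105 and 2567 (−0.055, 95% interval −0.42 to 0.31). Insig2 (chr1:121304353-121332589, minus strand), the INSIG form that is not under SREBP2 control in the same way, was at 819, 809 and 781 against 702, 719 and 569. The lowest Nedd4lfl/fl VillinCre library was above the highest Nedd4lfl/fl library, with means of 803 ± 19.7 and 663 ± 82.0 (SD, n = 3) and a log2 fold change of 0.28 (SE 0.11, unadjusted p = 0.0317, adjusted p = 0.326 from limma). Without Nedd4lfl/fl VillinCre replicate 1, 2 and 3 in turn, the log2 fold change of Insig2 was 0.27, 0.28 and 0.3. Without Nedd4lfl/fl replicate 1, 2 and 3 in turn it was 0.33, 0.34 and 0.18. The smallest value was thus without replicate 3, the lowest library at 569. With 1 library left out, the unadjusted p of Insig2 stayed under 0.05 (limma) only without Nedd4lfl/fl replicate 1 or 2. Scap (chr9:110333288-110384950, plus strand) was at 1252, 1244 and 1296 against 1312, 1417 and 1311. The genotypes did not overlap, but the difference was small, −0.091 on the log2 scale (95% interval −0.26 to 0.082, adjusted p = 0.594 from limma).

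Of the transport, esterification and efflux genes, 6 of 7 were tested, and this group had the widest intervals, with a median half-width of 0.46 on the log2 scale. Abca1, which passes cholesterol to lipid-poor apolipoprotein and is abundant in macrophages loaded with lipid, was at 812, 355 and 408 normalized counts against 448, 364 and 444. Only Nedd4lfl/fl VillinCre replicate 1 was outside the range of the other 5 libraries by a wide margin. The log2 fold change was 0.23 (95% interval −0.52 to 0.98, adjusted p = 0.755 from limma) with that library and −0.13 without it. Abcg1, which exports cholesterol to mature lipoprotein, was at 313, 210 and 227 against 164, 218 and 241 (0.27, adjusted p = 0.577), again with the highest value in replicate 1, and was at 0.092 without it. Nr1h3, which encodes LXRα, had its lowest value in the same library, at 196, 332 and 263 against 310, 353 and 310 (−0.33, 95% interval −0.78 to 0.12, adjusted p = 0.463 from limma), and was at −0.13 without it. In that mouse the receptor was at the lowest and both of its transporter targets at the highest value of the 6 libraries.

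Nedd4lfl/fl VillinCre replicate 1 also stood apart in markers of other cell types. Its 6 neutrophil markers summed to 9235 normalized counts, against 2967 to 3233 in the other 5 libraries. Ly6g made up most of the sum in those 5 and did not follow the other markers, at 2486, 2832 and 2200 in the Nedd4lfl/fl VillinCre and 2829, 3136 and 3064 in the Nedd4lfl/fl libraries. The other 5 markers were highest in Nedd4lfl/fl VillinCre replicate 1 and next highest in replicate 3, as S100a8 at 2708, 31.0 and 417 against 12.8, 38.7 and 29.0. Its 7 fibroblast markers summed to 42824, against 10669 to 22660, and its 7 leukocyte markers to 9263, against 4767 to 6569. The 11 macrophage markers did not stand apart there, at 11467 in this library and 7317 to 13469 in the other 5. None of the fibroblast, leukocyte or macrophage markers was at 0 in any library, while Cxcr2 of the neutrophil list was at 0 in Nedd4lfl/fl replicates 1 and 3. The part of these cells in the Abca1, Abcg1 and Nr1h3 values was not tested.

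The remaining members of this group did not separate the genotypes. Stard4 had a log2 fold change of −0.0079 (95% interval −0.20 to 0.18). Soat1, which esterifies cholesterol in most cell types, was at 1110, 1749 and 1419 normalized counts against 1627, 1516 and 1382 (−0.10, adjusted p = 0.793 from limma). Soat2 varied widely within both genotypes, at 84.4, 36.5 and 64.0 against 85.9, 32.4 and 75.9, so that its interval ran from −1.07 to 1.00. Replicate 2 was the lowest library of each genotype for Soat2, as for Fdps.

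The synthesis genes varied more between mice of 1 genotype than between the genotypes. Averaged over the 18 mevalonate and sterol genes, the log2 level relative to the Nedd4lfl/fl average was 0.15, −0.14 and 0.088 in Nedd4lfl/fl VillinCre replicates 1, 2 and 3, and 0.081, −0.063 and −0.018 in the Nedd4lfl/fl replicates. The genotypes overlapped, their means differed by 0.034, and the SD was 0.15 among Nedd4lfl/fl VillinCre and 0.073 among Nedd4lfl/fl libraries. Replicate 2 was the lowest of the 3 Nedd4lfl/fl VillinCre libraries for 16 of 18 synthesis genes (88.9%), against 34.6% of all genes tested. Tm7sf2 and Dhcr7 were the exceptions, and both were highest there. Among the Nedd4lfl/fl libraries replicate 1 was highest for 12 of 18 synthesis genes (66.7%), against 34.2% of all genes. Replicate 2 of that genotype was lowest for 10 of 18 (55.6%), against 35.2% of all genes. Srebf2 and Insig1 had the same order, with replicate 2 lowest among the Nedd4lfl/fl VillinCre and replicate 1 highest among the Nedd4lfl/fl libraries.

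**Figure D4:**
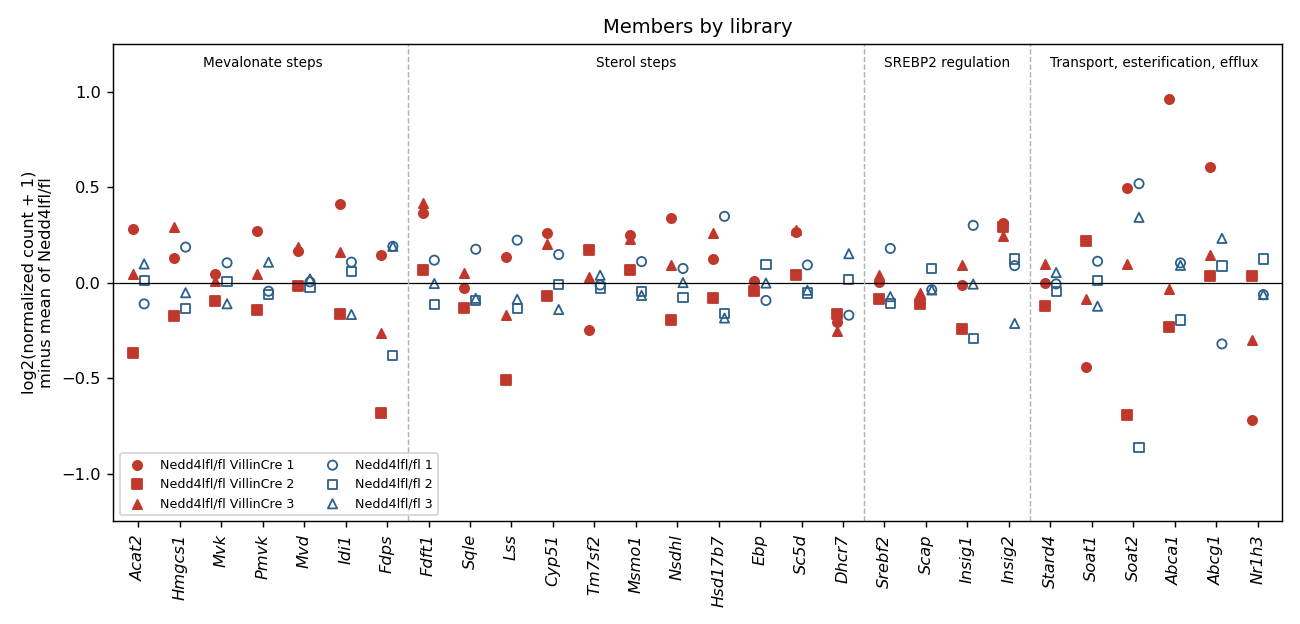
Log2(normalized count + 1) minus the mean of the Nedd4lfl/fl libraries for the 28 tested members, by role; filled symbols are the 3 Nedd4lfl/fl VillinCre and open symbols the 3 Nedd4lfl/fl libraries. Nedd4lfl/fl VillinCre replicate 2 (filled squares) is lowest of its genotype for 16 of the 18 mevalonate and sterol genes, and replicate 1 (filled circles) stands far from the rest for Abca1 and Nr1h3.

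**Figure D5:**
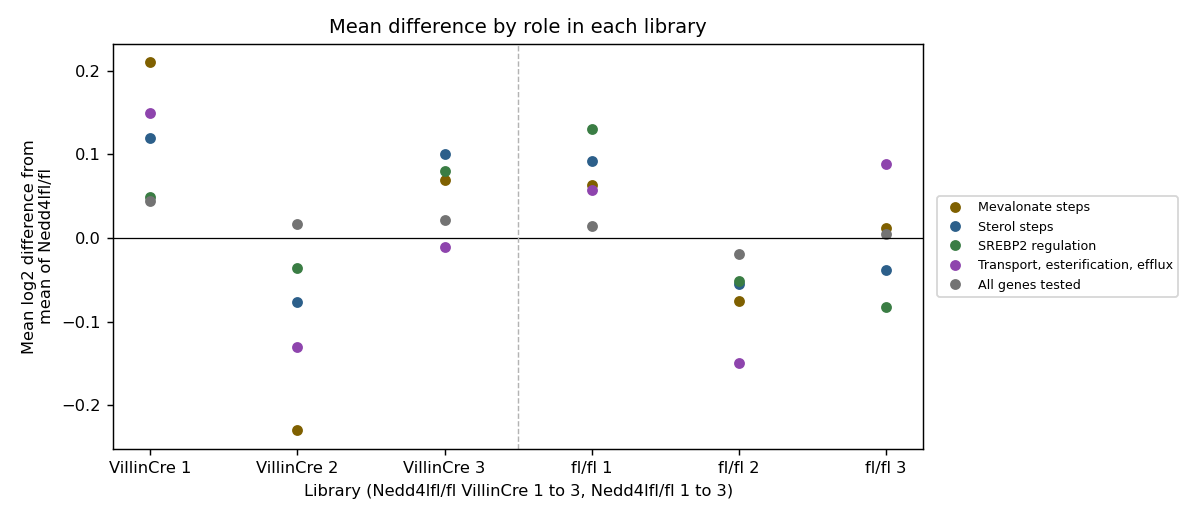
Mean log2 level relative to the Nedd4lfl/fl average for the genes of each role in each of the 6 libraries, with all 16246 genes tested in gray. The mevalonate genes run from −0.23 in Nedd4lfl/fl VillinCre replicate 2 to 0.21 in replicate 1. The mean over all genes tested, which normalization and averaging hold near 0, stays between −0.019 and 0.044.

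Since replicate 2 was the lowest of its genotype for most synthesis genes, leaving it out raises their difference by construction, and the values without it are given as a description. Without Nedd4lfl/fl VillinCre replicate 2, 13 of 18 synthesis genes were positive, with a median log2 fold change of 0.17 against −0.0039 over all genes tested, and the median of all 28 members was 0.16. Fdft1 was then at 0.39, Idi1 at 0.29, Sc5d at 0.27 and Msmo1 at 0.24, and these 4 were the synthesis genes at an unadjusted p under 0.05. They are 22.2% of the synthesis genes, against 8.93% of all genes that were higher at that level in the same fit. The smallest adjusted p of a synthesis gene was 0.109 (limma), for Fdft1, so 0 passed 0.05. Without replicate 1 of the same genotype, 9 of 18 synthesis genes were positive and the median was −0.019.

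Among 46 other genes of the cholesterol pathway that are not members, 44 were in the table and 41 were tested. They had a median log2 fold change of 0.008, and 0 of 41 passed an adjusted p of 0.05 in limma. At an unadjusted p under 0.05, 3 were higher (7.32%, against 6.91% of all genes) and 2 lower (4.88%, against 7.08%), and the genotypes did not overlap for 9 (22.0%, against 21.4%). The smallest p was that of Srebf1, which encodes SREBP1, the related factor that drives fatty acid genes more than cholesterol genes. Srebf1 was at 2323, 1858 and 2286 normalized counts in Nedd4lfl/fl VillinCre and at 2877, 3133 and 3278 in Nedd4lfl/fl mice, every library of the first below every library of the second (log2 fold change −0.53, SE 0.11, adjusted p = 0.172 from limma). Srebf2, above, was at −0.012.

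The next in order handle cholesterol that arrives from outside the cell. Lrp1, an endocytic receptor for lipoprotein remnants that is prominent in fibroblasts and macrophages, was at 4556, 4765 and 4692 normalized counts against 3817, 3858 and 3790 (log2 fold change 0.29, adjusted p = 0.211 from limma). Lipa, the lysosomal lipase that frees cholesterol from its esters, was at 844, 766 and 710 against 628, 606 and 626 (0.31, adjusted p = 0.274). Neither gene overlapped between the genotypes. All 7 fibroblast markers had positive log2 fold changes as well (median 0.84, smallest adjusted p = 0.265 from limma). Their summed level was 21185 to 42824 in Nedd4lfl/fl VillinCre and 10669 to 18246 in Nedd4lfl/fl mice. In Nedd4lfl/fl VillinCre replicate 1, where that sum was highest, Lrp1 was at the lowest value of its genotype and Lipa at the highest. All 11 macrophage markers were positive too (median 0.30), with sums of 11446 to 13469 and 7317 to 11440. The part of either cell type in these values was not tested.

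Of the remaining 3 with the smallest p, Ggps1, which diverts farnesyl diphosphate to geranylgeranyl diphosphate, was at 513, 519 and 536 normalized counts against 438, 416 and 459 (log2 fold change 0.26, adjusted p = 0.313 from limma). Gramd1b, a carrier of cholesterol from the plasma membrane to the endoplasmic reticulum, was at 194, 272 and 238 against 329, 276 and 306 (−0.38, adjusted p = 0.344). Stard3, which moves cholesterol out of late endosomes, was at 806, 1005 and 927 against 819, 765 and 742 (0.23, adjusted p = 0.365). The genotypes overlapped for Stard3 and not for Ggps1 and Gramd1b.

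Markers of the absorptive epithelium did not pass the test either. All 10 colonocyte markers had negative log2 fold changes (median −0.62, 1 at an unadjusted p under 0.05, smallest adjusted p = 0.313 from limma), with overlapping sums of 65850 to 111379 normalized counts in Nedd4lfl/fl VillinCre and 108584 to 130243 in Nedd4lfl/fl mice. Nedd4lfl/fl VillinCre replicate 2, the lowest for synthesis genes, had the highest colonocyte sum of its genotype (111379, against 65850 and 70233). It also had the highest goblet cell sum of all 6 libraries, 460335, against 99801 to 318871 in the others. All 8 crypt and proliferation markers were negative (median −0.54, 3 at an unadjusted p under 0.05, smallest adjusted p = 0.137 from limma). The 3 were Pcna, Mcm2 and Mcm5, for which the genotypes did not overlap, whereas they overlapped for Lgr5, Ascl2, Smoc2, Mki67 and Top2a. Over all genes tested, 7.08% were lower at that level and 10.9% were lower without overlap. The sums of all 8, 14384 to 15428 in Nedd4lfl/fl VillinCre and 17452 to 18804 in Nedd4lfl/fl mice, did not overlap. None of these markers was at 0 in any library, and their part in the values of the synthesis genes was not tested.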

How the data were processed

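RNA from 6 colonic tissue samples was sequenced after NEBNext Ultra library preparation, and a single table holds all 6 libraries. Its values, as deposited, are normalized counts (a signal: the reads of each gene scaled by the size factor of its library). All values of a library were whole multiples (tolerance 0.01) of its smallest. The submitters' processing notes name HISAT2 2.0.5, featureCounts 1.5.0-p3 and the human build hg18, whereas the table lists mouse genes, of which 97.1% have identical coordinates in GENCODE M21 on GRCm38 (27 of 29 members). Strand use is not stated. The authors' means, fold changes and p-values, also in the table, were not used. The gene model lengths are those listed in the deposited table.

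Values were compared as log2(value + 1), which understates differences of low genes, by lmFit and eBayes (trend, robust) in limma 3.58.1 under R 4.3.3, over genes with a mean of at least 10, two-sided, with Benjamini-Hochberg adjustment over all genes and a threshold of 0.05; the fit was tested on simulated data. The labels do not say how littermates fall among samples, so the p-values measure the spread between these 6 samples. Members and lists were chosen with earlier results of these data known. All members are named. Values per library are given for those at an unadjusted p under 0.05 or without overlap, and for Srebf2, Insig1, Abca1 and Nr1h3. They are also given for further members chosen after their values were seen. Of the other pathway genes, the 6 with the smallest p are named, and Nr1h2, chosen after its values were seen. Figures were drawn with matplotlib 3.10.9. Some genes of the pathway are not reported here.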

Additional observations from a re-analysis of the deposited data

How the results depend on the processing

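Over 14 alternatives (pseudocounts of 0.5 and 5, no filter or a mean of at least 50, TMM scaling, quantile normalization, array weights, a replicate block and each library left out), 0 members passed an adjusted p of 0.05 in limma; the smallest was 0.0566, for Fdft1 with array weights (up to 0.592 under the others). Of 392 member values, 362 kept their direction. With all libraries kept, 7 turned, all with array weights: Acat2 0.0090, Mvk 0.016, Sqle 0.034, Tm7sf2 0.016, Srebf2 0.031, Insig1 0.037 and Stard4 0.058. With 1 library left out, values ran from −0.16 to 0.16 for Acat2, −0.022 to 0.21 for Hmgcs1, −0.069 to 0.038 for Mvk, −0.046 to 0.16 for Pmvk, −0.083 to 0.052 for Sqle, −0.11 to 0.10 for Tm7sf2, −0.051 to 0.22 for Nsdhl, −0.069 to 0.024 for Ebp, −0.066 to 0.077 for Srebf2, −0.20 to 0.10 for Insig1, −0.061 to 0.048 for Stard4, −0.26 to 0.066 for Soat1, −0.46 to 0.30 for Soat2 and −0.13 to 0.46 for Abca1. Medians then ran from −0.029 to 0.16 for the members, −0.043 to 0.16 for the mevalonate genes, 0.0086 to 0.19 for the sterol genes, −0.074 to 0.086 for SREBP2 and its regulators (highest without Nedd4lfl/fl replicate 1) and −0.081 to 0.17 for transport, esterification and efflux; each highest value but that of SREBP2 and its regulators was without Nedd4lfl/fl VillinCre replicate 2. Counts over all genes ran from 0 to 70 higher and 0 to 52 lower, both largest without that library, and 2 higher and 22 lower without replicate 1. Without a filter 7 genes were higher and 23 lower, and with array weights 262 and 369, among them 1 higher (Lrp1) and 1 lower (Srebf1) of the other pathway genes. The array weights were 0.4139, 0.5623 and 4.392 for Nedd4lfl/fl VillinCre replicates 1, 2 and 3. Those of the Nedd4lfl/fl replicates were 0.9214, 0.7924 and 1.34. On the Nedd4lfl/fl VillinCre side the fit with array weights therefore rests mostly on replicate 3. Nedd4l was at −1.09 with array weights (adjusted p = 0.0212, and 0.0131 to 0.512 over all alternatives) and from −1.28 to −0.79 with 1 library left out. The cause was not tested. Same-numbered libraries had correlations of −0.0286, −0.0898 and −0.0556 between their deviations over all genes tested. With 3 mice per genotype these values cannot decide whether the numbers pair the mice. With the replicate block 0 genes passed, and Nedd4l was at −0.99 (adjusted p = 0.236 from limma). The count tests planned in edgeR and DESeq2 were not run: the values of each library are whole multiples of its smallest, but reads were not taken as recovered because that of Nedd4lfl/fl replicate 3, 0.999, lies close to 1. Depth limits Npc1l1, at 2.21 to 5.93 normalized counts per library.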
